A study of Mus musculus with 36 samples.

Results

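The 6 genes described here load or make the main fast transmitters of the brain: Slc17a6, Slc17a7 and Slc17a8, which encode the vesicular glutamate transporters VGLUT2, VGLUT1 and VGLUT3; Gad1 and Gad2, which encode the 2 glutamate decarboxylases; and Slc32a1, which encodes the vesicular GABA transporter VGAT. They were chosen by name, and all 6 were found among the 31554 genes measured. RNA sequencing was done on 36 libraries of adult male C57BL/6 mice, from 3 brain regions after 1 of 2 operations. The groups, each of 6 libraries, were spared nerve injury (SNI) and sham surgery in the periaqueductal grey (PAG), SNI and sham in the nucleus accumbens (NAc), and SNI and sham in the prefrontal cortex (PFC, its medial part). SNI is a model of lasting neuropathic pain in which some branches of the sciatic nerve are injured and another is left intact; tissue was taken 2.5 months after surgery. The labels name no genetic change or drug, say that libraries were made from pooled RNA, and do not say how many mice stand behind a library, so the p-values measure the spread between libraries, which may be technical in part.

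A neuron that releases glutamate packs it into synaptic vesicles with a VGLUT protein, driven by the proton gradient of the vesicle. A neuron that releases GABA first makes it from glutamate, with the enzymes GAD67 (from Gad1) and GAD65 (from Gad2), and then packs it with VGAT, which also carries glycine. In the rodent brain VGLUT1 is typical of cortical and hippocampal excitatory neurons and VGLUT2 of those of the thalamus and brain stem. VGLUT3 is found in sparser neurons that also use another transmitter, such as serotonin neurons of the raphe and cholinergic interneurons of the striatum. NAc holds mostly GABA projection neurons (medium spiny neurons), PFC mostly excitatory neurons with GABA interneurons among them, and PAG, a midbrain centre of pain control, a mixture of both kinds beside the serotonin neurons of the dorsal raphe.

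Depth was 27.6 to 64.9 M assigned reads per library, and a single read on 1 kb of gene length came to 0.0154 to 0.0362 RPKM (reads per kilobase and per M reads). The markers of each region were present in its libraries. The 9 midbrain markers summed to 30.3 to 37.7 RPKM in SNI PAG and 29.7 to 32.97 RPKM in sham PAG libraries. The 10 medium spiny markers summed to 1385 to 2099 RPKM in SNI NAc and 1409 to 2096 RPKM in sham NAc libraries, and the 10 cortical excitatory markers to 213 to 260 RPKM in SNI PFC and 230 to 268 RPKM in sham PFC libraries. No marker was at 0 in the libraries of its own region. In bulk tissue, fewer cells of a type and less RNA per cell cannot be told apart.

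In level, Slc17a6 and Slc17a7 each led in a different region, while the GABA genes were present in all 3. Slc17a6 was the leading glutamate transporter of PAG, with 96.7 to 124 RPKM over the 12 libraries (median 114), against 1.03 to 3.72 RPKM (median 2.05) in NAc and 2.57 to 4.77 RPKM (median 3.41) in PFC. The PAG libraries lay far above all others, and the NAc and PFC libraries overlapped. Slc17a7 was the leading one of PFC. It had 1.70 to 3.66 RPKM (median 2.27) in PAG, 1.59 to 178 RPKM (median 63.0) in NAc and 414 to 543 RPKM (median 475) in PFC. In NAc its highest library had 112 times the level of its lowest, the widest spread of the 6 genes in any of the 3 regions. Slc17a8 was the lowest of the 3 in PFC, with 0.794 to 1.09 RPKM (median 0.902), where 137 to 275 reads stood behind each value. It had 1.58 to 9.70 RPKM (median 6.28) in PAG and 3.69 to 6.01 RPKM (median 4.52) in NAc, and these ranges overlapped.

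The GABA genes were present at 7.92 RPKM or more in every library of every region. Gad1 had 48.3 to 74.3 RPKM (median 58.6) in PAG, 93.3 to 115 RPKM (median 101) in NAc and 34.8 to 44.5 RPKM (median 38.3) in PFC. Gad2 had 96.5 to 119 RPKM (median 105) in PAG, 151 to 200 RPKM (median 174) in NAc and 27.9 to 34.3 RPKM (median 30.4) in PFC. For both enzymes the 3 regions did not overlap, in the order NAc, PAG, PFC. The share of all genes that separate the regions in this way was not counted. Slc32a1 had 18.3 to 40.8 RPKM (median 24.9) in PAG, 29.3 to 83.1 RPKM (median 58.2) in NAc and 7.92 to 18.3 RPKM (median 15.8) in PFC; PAG overlapped with NAc, and its lowest library was just under the highest of PFC.

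**Figure D1:**
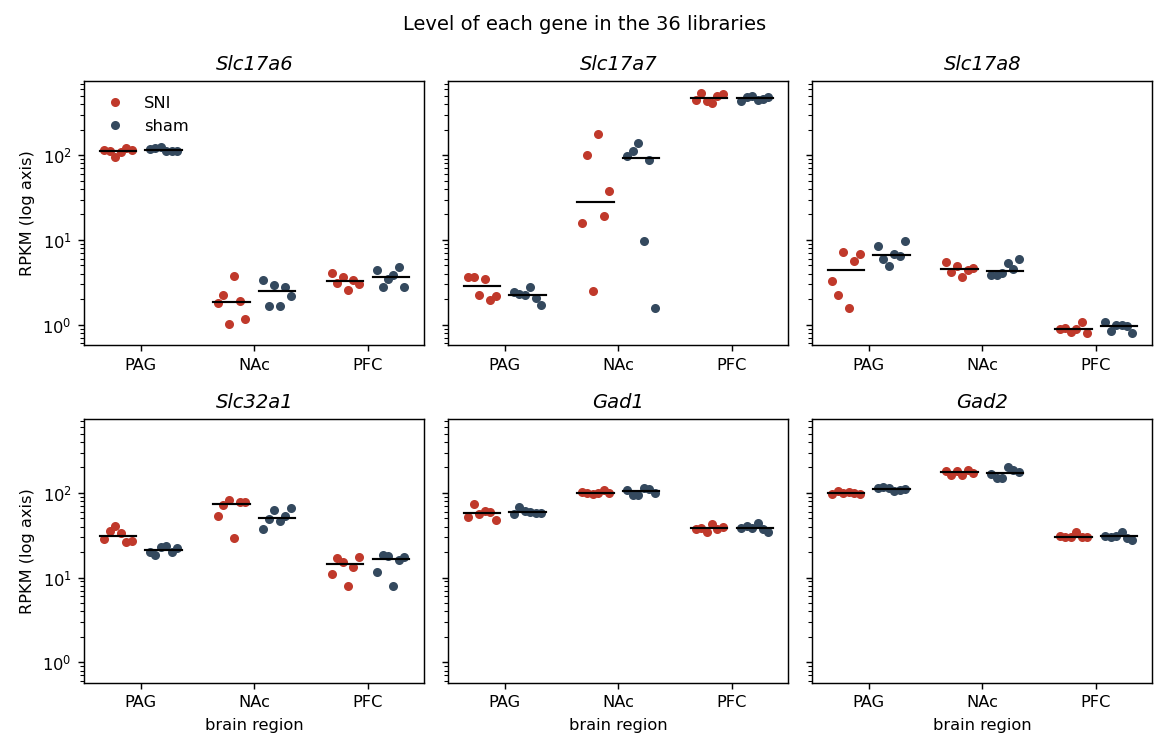
RPKM of the 6 genes (log axis, the same in all panels) in each library, by region, with SNI libraries left of sham libraries and a bar at each group's median; sideways spread only separates the points. Slc17a6 reaches 96.7 to 124 RPKM in PAG and Slc17a7 414 to 543 RPKM in PFC, while Slc17a7 in NAc spreads from 1.59 to 178 RPKM.

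The regions were then compared in sham libraries, with limma on log2(RPKM + 0.5), calling an adjusted p under 0.05 with a fold of at least 2. Between NAc and PFC, 5 of the 6 genes were called, where 6.85% of 15639 genes were. Gad2 was 2.46 higher in NAc (SE 0.05, adjusted p = 4.65e-28), Slc32a1 was 1.82 higher (SE 0.21, adjusted p = 4.79e-09) and Gad1 was 1.39 higher (SE 0.07, adjusted p = 6.00e-18), all differences on the log2 scale. Slc17a8 was 1.81 higher in NAc (SE 0.21, adjusted p = 3.27e-09), and Slc17a7 had a log2 difference of -3.64 (SE 0.73, adjusted p = 6.64e-05). Slc17a6, at -0.53 (adjusted p = 0.00722), passed the test but not the fold.

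Between PAG and NAc, 3 of the 6 genes were called, against 13% of all genes. Slc17a6 was higher in PAG by 5.36 on the log2 scale (SE 0.17, adjusted p = 1.70e-24), a 41.1-fold difference. Slc17a7 (-3.79, adjusted p = 2.63e-05) and Slc32a1 (-1.28, adjusted p = 2.42e-06) were lower in PAG. Gad1 (-0.78), Gad2 (-0.62) and Slc17a8 (0.55) passed the test with folds under 2, at adjusted p = 9.49e-12, 4.88e-12 and 0.0178. Between PAG and PFC, 4 of the 6 were called, against 15.1% of all genes: Slc17a6 (4.83, SE 0.17), Slc17a8 (2.37, SE 0.21) and Gad2 (1.85, SE 0.05) were higher in PAG, and Slc17a7 had a difference of -7.44 (SE 0.73). Their adjusted p-values were 3.08e-23, 2.97e-12, 3.89e-25 and 5.24e-11. Gad1 at 0.61 (adjusted p = 2.65e-09) and Slc32a1 at 0.54 (adjusted p = 0.0215) were below the fold.

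The SNI libraries gave each of these contrasts again with other libraries: 5 of the 6 genes were called between NAc and PFC (7% of all genes), 2 between PAG and NAc (12.9%) and 5 between PAG and PFC (13.2%). Slc17a6 was 5.58 higher in PAG than in NAc, and 4.89 higher than in PFC. For Gad2 the difference between NAc and PFC was 2.48, and for Gad1 1.39. Slc17a7 stood at -7.18 between PAG and PFC. Departures from the sham values were seen with and without PAG. Slc32a1 had a PAG to PFC difference of 1.21 (adjusted p = 5.90e-06) in SNI libraries and 0.54 in sham libraries. Its PAG to NAc difference was -0.97 in SNI, under the fold, and -1.28 in sham libraries, and its NAc to PFC difference 2.18 and 1.82. Slc17a8 had a PAG to NAc difference of -0.19 (adjusted p = 0.423) in SNI libraries and 0.55 in sham libraries. For Slc17a7 the SNI and sham values were -3.17 and -3.79 between PAG and NAc, and -4.00 and -3.64 between NAc and PFC. The tests of such departures themselves are given with the interaction contrasts.

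In PAG, Slc32a1 rose and Gad2 fell in SNI libraries, and the other 4 genes did not pass the test. These 2 of 6 genes stood against 35.2% of all 15592 genes called in that region, 21.5% higher and 13.7% lower in SNI (61.1% of the calls were higher, and 42.1% with quantile scaling). Slc32a1 had 26.2, 30.9 and 40.8 RPKM (lowest, median and highest) in SNI PAG libraries, and 18.3, 21.04 and 23.5 RPKM in sham PAG libraries. All 6 SNI libraries lay above all 6 sham libraries, a separation that 13.3% of the genes showed in this direction. The difference was 0.56 on the log2 scale (SE 0.10, adjusted p = 0.000857), a 1.48-fold level; in 1 model of all 36 libraries the adjusted p was 0.0535. Gad2 had 96.5, 99.7 and 104 RPKM in SNI PAG libraries, and 106, 112 and 119 RPKM in sham PAG libraries. Here all SNI libraries lay below all sham libraries, as for 3.63% of the genes, and the difference was small, -0.16 (SE 0.03, adjusted p = 0.00223), a 0.898-fold level.

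Slc32a1, the gene with the larger of these 2 differences, differs from the other 5 in base composition. It lies on mouse chromosome 2 (GRCm38, chr2:158610767-158615748, plus strand; 2 exons in the transcript used) and 61.9% of its longest transcript is G or C, more than in 98.0% of all genes. The longest transcripts of the others ranged from 42.9% in Slc17a6 (chr7:51622006-51671119, plus strand) to 56.6% in Slc17a7 (chr7:45163949-45176142, plus strand), with 44.0% in Slc17a8 (chr10:89574020-89621253, minus strand), 44.1% in Gad2 (chr2:22622205-22693874, plus strand) and 47.3% in Gad1 (chr2:70553072-70602014, plus strand). At the last position of codons, G or C made up 84.6% of Slc32a1, 73.3% of Slc17a7, 59.2% of Gad1, 57.4% of Slc17a8, 55.3% of Slc17a6 and 54.4% of Gad2. The contrast shows in the 120 coding bases around the middle codon, given here with G and C in capitals for the gene that rose and the gene that fell. In Slc32a1 they are coding bases 727 to 846, in exon 2 (chr2:158614153-158614272), with 56.7% G or C and 87.5% at those last positions. In Gad2 they are coding bases 817 to 936, joined from exons 7 to 9, with 45% G or C, also at the last positions of its codons. The matching bases of Slc17a7, not printed, are close to those of Slc32a1, with 55.8% G or C and 77.5% at the last positions.
Slc32a1: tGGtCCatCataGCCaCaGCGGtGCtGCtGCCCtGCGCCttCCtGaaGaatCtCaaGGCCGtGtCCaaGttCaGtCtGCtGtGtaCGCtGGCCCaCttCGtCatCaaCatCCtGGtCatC
Gad2: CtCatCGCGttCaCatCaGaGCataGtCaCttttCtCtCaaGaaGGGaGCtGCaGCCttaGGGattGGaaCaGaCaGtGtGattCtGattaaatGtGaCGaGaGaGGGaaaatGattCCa

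The libraries themselves differed in how they weighted such composition. A GC slope was computed for each library: how much, in log2 units, its genes departed from their mean in that region for every 10% more GC. In PAG these slopes were 0.0359 to 0.218 in SNI libraries and -0.217 to -0.0246 in sham libraries. The groups did not overlap (exact permutation p = 0.00216, adjusted p = 0.0357 over 33 comparisons of library measures). In NAc they were -0.20 to 0.152 in SNI and -0.185 to 0.0568 in sham libraries, in PFC -0.241 to 0.124 in SNI and -0.262 to 0.117 in sham libraries, overlapping in both regions (exact permutation p = 0.234 and 0.909). Of the 654 PAG genes with at least 60% GC, 78.3% were called higher in SNI, with a median difference of 0.43. Of the 2995 with 40 to 45% GC, where Gad2, Slc17a6 and Slc17a8 belong, 0.401% were called higher and 32.1% lower, with a median of -0.11.

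Slc32a1 followed the GC slope from library to library in every region, after the group means had been removed. Pearson's r over 12 libraries was 0.835 in PAG (adjusted permutation p = 0.00216 over 36 relations; Spearman's rho 0.741, adjusted p = 0.0524), 0.883 in NAc (adjusted p = 0.0117; rho 0.699, adjusted p = 0.0698) and 0.991 in PFC (adjusted p = 0.00012; rho 0.923, adjusted p = 0.00168). Raw permutation p-values of r were 0.00024 in PAG, 0.00228 in NAc and 1e-05 in PFC, the last the smallest that 100000 permutations can give; those of rho were 0.0116, 0.0208 and 0.00014. Without the 2 libraries farthest from the median slope, r was 0.728, 0.797 and 0.972. The slope is computed from the genes of the library itself. Genes of high GC content therefore rise with it on average, and those of low GC content fall, by construction. How many other genes of similar GC content follow the slope as closely was not tested. These r and p-values are thus not shown to be particular to Slc32a1. Gene and slope come from the same libraries and share their depth. Slc17a6 in PAG went the other way, with r = -0.834 (permutation p = 0.00053, adjusted p = 0.00318; rho -0.846, permutation p = 0.00034, adjusted p = 0.00245; r = -0.764 without the 2 farthest libraries). In PFC, Slc17a7 had r = 0.697 (permutation p = 0.00602, adjusted p = 0.0255; rho 0.720, permutation p = 0.00752, adjusted p = 0.0387; r = 0.630 without the 2 farthest), and Gad2 r = -0.814 (permutation p = 0.00637, adjusted p = 0.0255; rho -0.448, permutation p = 0.187, adjusted p = 0.354). The relation of Gad2 in PFC rested on SNI replicate 19 and sham replicate 13, without which r was -0.337. In PAG, Gad2 did not pass, with r = -0.481 (permutation p = 0.132, adjusted p = 0.23). Its rho there was -0.273 (adjusted permutation p = 0.634), and r was -0.288 without the 2 farthest libraries. Slc17a8 (r = 0.108), Slc17a7 (0.167) and Gad1 (-0.144) did not pass in PAG either (adjusted permutation p of 0.775 to 0.841). In NAc, Gad1 passed for rho (-0.734, adjusted permutation p = 0.034) and not for r (-0.596, adjusted permutation p = 0.0851). Without the 2 farthest libraries that r was -0.748. Slc17a6 in PFC had r = 0.735 with the mean log2 deviation of oligodendrocyte markers (adjusted permutation p = 0.0317). There rho was 0.685 (adjusted permutation p = 0.0698), and r was 0.618 without the 2 farthest libraries.

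**Figure D2:**
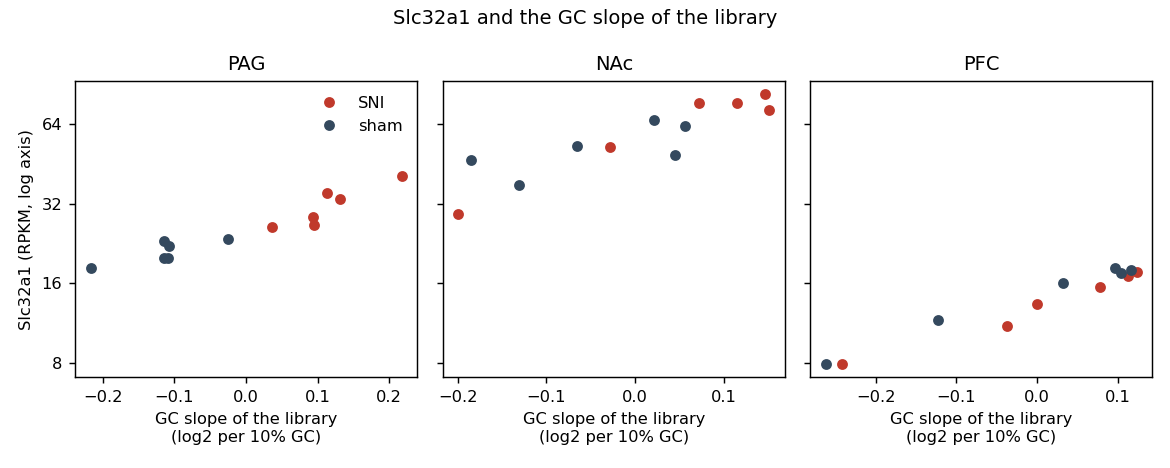
Slc32a1 (RPKM, log axis) against the GC slope of the library (log2 per 10% GC) in PAG, NAc and PFC; each point is 1 library, SNI in red and sham in dark blue. In PAG the SNI libraries, with slopes of 0.0359 to 0.218, lie to the right of and above the sham libraries, while in NAc and PFC both groups lie along the same range of slopes.

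With the GC slope as a covariate in the PAG model, limma called 0 genes, and 1374 had an unadjusted p under 0.05. Slc32a1 then had a log2 difference of -0.07 (SE 0.14, adjusted p = 0.893), Gad2 of -0.07 (SE 0.07, adjusted p = 0.768) and Slc17a6 of 0.22 (SE 0.07, adjusted p = 0.512). Since the slopes of SNI and sham PAG libraries do not overlap, surgery and GC slope cannot be told apart in PAG. Oligodendrocyte markers also differed between the groups there, with 4 of 9 called higher. All 9 had a summed level of 1263 to 1732 RPKM in SNI PAG and 1184 to 1362 RPKM in sham PAG libraries, and these ranges overlapped. Their score (mean log2 deviation of the markers) was 0.25 higher in SNI (exact permutation p = 0.00216, adjusted p = 0.0357). The scores were apart only narrowly, with a lowest SNI score of -0.0702 and a highest sham score of -0.0750. Of the 9 midbrain markers, 4 were called higher and none lower (score difference 0.17, exact permutation p = 0.0238, adjusted p = 0.196). Beside these counts, 21.5% of all genes tested in PAG were called higher, and the part of GC content in the marker calls was not tested. The part of these markers in the differences of Slc32a1 and Gad2 was not tested. An antisense gene, Gm14205, overlaps Slc32a1, and had at most 0.304 RPKM in any library.

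**Figure D3:**
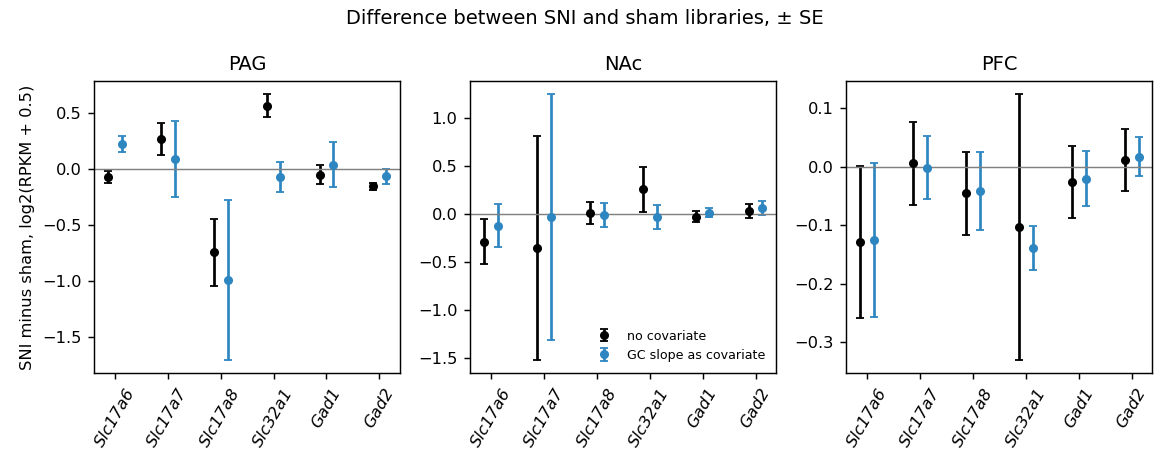
SNI minus sham difference of each gene, in log2(RPKM + 0.5), ± SE of the limma model, in PAG, NAc and PFC (the vertical axes differ), without a covariate (black) and with the GC slope of the library as covariate (blue). In PAG, Slc32a1 stands at 0.56 without and -0.07 with the covariate.

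Slc17a8 had the widest spread among PAG libraries of the 6 genes. Its levels were 1.58, 4.45 and 7.20 RPKM (lowest, median and highest) in SNI PAG libraries, and 4.88, 6.67 and 9.70 RPKM in sham PAG libraries. SNI replicates 31, 32 and 34 were below every sham library, at 1.58, 3.28 and 2.26 RPKM, and the other 3 SNI libraries lay within the sham range. The difference was -0.74 (SE 0.30) with an adjusted p of 0.0679, past the threshold under some other settings: adjusted p = 0.0142 with array weights, 0.0163 in 1 model of all libraries, 0.0445 with quantile scaling and 0.0285 on recovered reads, and 0.0498, 0.0348 and 0.0326 without SNI replicate 33, 35 or 36.

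The level of Slc17a8 in PAG moved with the markers of serotonin neurons. The 6 markers (Tph2, Slc6a4, Fev, Ddc, Gch1 and Htr1a) summed to 109 to 296 RPKM in SNI PAG and 224 to 341 RPKM in sham PAG libraries; none was at 0, and none of the 6 was called. The lowest sums, 109 and 126 RPKM, were those of SNI replicates 31 and 34, which also had the lowest Slc17a8. Group means removed, r between Slc17a8 and the marker score was 0.965 (permutation p = 1e-05, the smallest possible, adjusted p = 0.00012; rho 0.951, permutation p = 2e-05, adjusted p = 0.00036), and 0.937 without the 2 farthest libraries. Cholinergic markers differed among the same libraries: their score was -0.35 and -0.79 in SNI replicates 31 and 34, and 0.38 in SNI replicate 36 and 0.51 in sham replicate 29. The 6 summed to 36.1 to 60.7 RPKM in SNI PAG and 37.5 to 60.4 RPKM in sham PAG libraries, with Lhx8 at 0 in some libraries of both groups. Of the 4 that passed the filter, Ache was called higher and Slc5a7 lower. The score difference was -0.35 (exact permutation p = 0.104, adjusted p = 0.554), against -0.36 for the serotonin score (exact permutation p = 0.171, adjusted p = 0.627). The part of the cholinergic markers in the level of Slc17a8 was not tested. The SNI minus sham difference of Slc17a8 was -0.21 (SE 0.10, adjusted p = 0.124) with the serotonin score as a covariate. Of the genes most like Slc17a8 across PAG libraries, the closest 3 were Slc6a4, the serotonin transporter (r = 0.973), Ddc, the enzyme of the last step of serotonin synthesis (0.972), and Tph2, that of its first (0.968), out of 11940 genes; points share library and depth.

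Slc17a7, Slc17a6 and Gad1 did not pass the test in PAG. Slc17a7 had 1.97, 2.86 and 3.66 RPKM (lowest, median and highest) in SNI PAG and 1.70, 2.26 and 2.79 RPKM in sham PAG libraries, a difference of 0.27 (SE 0.14, adjusted p = 0.158); with array weights it was 0.38 (adjusted p = 0.0264). The groups overlapped, with 3 SNI libraries above all sham libraries. Slc17a6 had 96.7, 113 and 122 RPKM in SNI PAG and 112, 116 and 124 RPKM in sham PAG libraries (-0.07, SE 0.05, adjusted p = 0.287). Gad1 had 48.3, 57.9 and 74.3 RPKM in SNI PAG and 56.7, 58.8 and 67.3 RPKM in sham PAG libraries (-0.05, SE 0.08, adjusted p = 0.662). Both genes overlapped between the groups, and for Gad1 the SNI libraries held both the highest and the lowest value.

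In NAc and PFC no gene passed the adjusted threshold, among these 6 or among the rest (0% of 15264 and 0% of 15192 genes; 660 and 220 had an unadjusted p under 0.05, and voom on the recovered reads also called 0; array weights called 2 in NAc). In NAc, Slc32a1 had 29.3, 74.9 and 83.1 RPKM (lowest, median and highest) in SNI and 37.7, 51.0 and 66.6 RPKM in sham libraries. SNI libraries held the extremes at both ends, and the difference of 0.25 (SE 0.23, adjusted p = 0.782) was about as large as its error. Without 1 library it ranged from 0.16 to 0.47, the highest without SNI replicate 7, the lowest SNI library (adjusted p = 0.158). Slc17a6 had 1.03, 1.86 and 3.72 RPKM in SNI and 1.64, 2.50 and 3.35 RPKM in sham NAc libraries (-0.29, SE 0.23, adjusted p = 0.780), with a range of -0.46 (without SNI replicate 7, adjusted p = 0.216) to -0.17 (without SNI replicate 12) when 1 library was left out. Gad1 and Gad2 differed by -0.03 (SE 0.06) and 0.03 (SE 0.07), and Slc17a8 by 0.00 (SE 0.11), with adjusted p of at least 0.871. In PFC the differences of all 6 lay between -0.13, for Slc17a6 (SE 0.13), and 0.01, for Gad2 (SE 0.05), at an adjusted p of 0.99997. Slc32a1 had 7.92, 14.4 and 17.7 RPKM in SNI PFC and 7.92, 16.8 and 18.3 RPKM in sham PFC libraries, overlapping over nearly the whole range.

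Slc17a7 in NAc varied within both groups by far more than between them. It had 2.53, 28.5 and 178 RPKM (lowest, median and highest) in SNI NAc and 1.59, 93.0 and 139 RPKM in sham NAc libraries, a difference of -0.35 with an SE of 1.16 (adjusted p = 0.929). The difference was -1.19 without sham replicate 5 and 0.30 without SNI replicate 12, the lowest library of each group. Its level moved with the markers of cortical excitatory neurons, of which 8 of 10 passed the filter in NAc and 0 were called. Summed, the 10 had 8.65 to 64.5 RPKM in SNI NAc and 9.81 to 47.9 RPKM in sham NAc libraries, and none was at 0. Neurod6, a transcription factor of cortical pyramidal neurons, had 0.0981 to 10.8 RPKM in SNI and 0.146 to 7.80 RPKM in sham NAc libraries. Group means removed, r between Slc17a7 and the marker score was 0.972 (permutation p = 1e-05, the smallest possible, adjusted p = 0.00012; rho 0.993, permutation p = 1e-05, adjusted p = 0.00036), and 0.995 without the 2 farthest libraries. Nearest to Slc17a7 across NAc libraries were Sstr3, a somatostatin receptor (r = 0.977), Neurod6 (0.976) and Cck, the neuropeptide cholecystokinin (0.975), of 11600 genes.

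**Figure D4:**
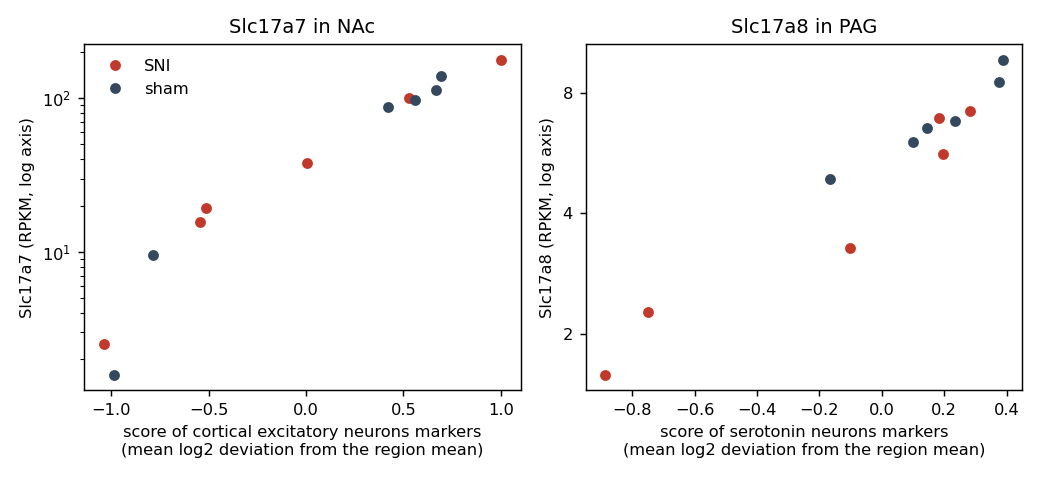
Left, Slc17a7 in the NAc libraries against the score of cortical excitatory markers; right, Slc17a8 in the PAG libraries against the score of serotonin markers (RPKM on log axes; score, mean log2 deviation of the markers from the region mean; SNI red, sham dark blue, 1 point per library). Both genes climb along the score in both groups, Slc17a7 from 1.59 to 178 RPKM and Slc17a8 from 1.58 to 9.70 RPKM.

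Slc17a8 ran against that cortical signal in NAc. Its r with the cortical marker score was -0.890 (permutation p = 0.00052, adjusted p = 0.00318; rho -0.881, permutation p = 0.0003, adjusted p = 0.00245; r = -0.868 without the 2 farthest libraries). Its r with Slc17a7 was -0.873 (permutation p = 0.00103, adjusted p = 0.0247 over 45 pairs of the 6 genes in 3 regions; rho -0.888, permutation p = 0.00041, adjusted p = 0.0184; r = -0.869 without the 2 farthest). Gad2 had r = -0.742 with the cortical score (permutation p = 0.0116, adjusted p = 0.038; rho -0.685, permutation p = 0.0213, adjusted p = 0.0698), and Gad1 r = -0.228 (permutation p = 0.47, adjusted p = 0.651). Markers of other NAc neurons also differed between libraries. Summed medium spiny markers ran from 1385 to 2099 RPKM in SNI and 1409 to 2096 RPKM in sham NAc libraries, and the 6 cholinergic markers, none at 0 and none called, from 40.8 to 66.4 RPKM in SNI and 50.1 to 68.9 RPKM in sham NAc libraries. The 2 libraries lowest in the cortical score, SNI replicate 12 and sham replicate 5, had summed medium spiny markers of 2079 and 2096 RPKM and summed cholinergic markers of 66.4 and 68.9 RPKM. The 2 highest, SNI replicate 7 and sham replicate 6, had 1385 and 1444 RPKM of medium spiny and 40.8 and 56.4 RPKM of cholinergic markers. Their part in the levels of Slc17a8 and Gad2 was not tested. These values come from the same 12 libraries and are not independent of each other.

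Between the decarboxylase genes, the correlation across libraries was positive in each region, with an adjusted p under 0.05 for r in PAG and PFC and in no region for rho. Pearson's r between Gad1 and Gad2 was 0.715 in PAG (permutation p = 0.00155, adjusted p = 0.0247; rho 0.755, permutation p = 0.00794, adjusted p = 0.129), 0.788 in NAc (permutation p = 0.0156, adjusted p = 0.1; rho 0.776, permutation p = 0.015, adjusted p = 0.135) and 0.873 in PFC (permutation p = 0.00165, adjusted p = 0.0247; rho 0.741, permutation p = 0.0142, adjusted p = 0.135). Without the 2 farthest libraries it was 0.665, 0.598 and 0.625. The NAc value thus rested in part on sham replicates 1 and 6, and the PFC value on SNI replicate 19 and sham replicate 13. To set the 2 genes side by side, RefSeq promoters (GRCm38.p6) of 300 bases are shown, for each gene the one nearest to its start given above. They are Gad1 at chr2:70561879-70562178 and Gad2 at chr2:22622077-22622376, both on the plus strand. The Gad2 window spans that start. The Gad1 window lies inside the gene, downstream of the start given above, and belongs to another annotated start. Capitals mark matches, on either strand, to TATAAA (in 13.6% of 32851 promoters), GGGCGG (35.7%), CAGCTG (16.3%) and TAATTA (5.29%); the matches shown do not overlap.
Gad1: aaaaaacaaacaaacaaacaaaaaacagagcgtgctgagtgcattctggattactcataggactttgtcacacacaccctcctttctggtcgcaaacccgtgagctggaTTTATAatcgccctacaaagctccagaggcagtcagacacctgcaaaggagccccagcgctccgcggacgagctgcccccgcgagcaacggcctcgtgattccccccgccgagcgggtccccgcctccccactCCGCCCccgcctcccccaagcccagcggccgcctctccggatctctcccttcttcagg
Gad2: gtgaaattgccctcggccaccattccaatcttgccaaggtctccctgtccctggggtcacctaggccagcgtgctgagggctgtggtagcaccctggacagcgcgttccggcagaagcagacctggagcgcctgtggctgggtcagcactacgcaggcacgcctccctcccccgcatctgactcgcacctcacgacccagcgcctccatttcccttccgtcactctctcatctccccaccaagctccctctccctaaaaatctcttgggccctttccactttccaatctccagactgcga

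The Gad1 window held 1 TATAAA and 1 GGGCGG, both read on the minus strand, and the Gad2 window none of the 4 motifs. Of the other 4 genes, Slc17a7 held 3 GGGCGG and Slc17a6 held 1, and Slc17a8 and Slc32a1 held none of the 4. G and C made up 60% of the Gad1 window, with 21 CpG, and 61.3% of the Gad2 window, with 14 CpG, against medians of 52.7% and 7 over all promoters. A match of letters is a description and does not show that a factor binds there.

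The balance of GABA loading to GABA synthesis was compared as the log2 ratio of Slc32a1 to the sum of Gad1 and Gad2, 1 of 4 balances tested in each of the 3 regions. In PAG it averaged -2.33 ± 0.22 in SNI and -3.03 ± 0.19 in sham libraries (SD, n = 6 each). No libraries overlapped, and the difference of 0.69 had an exact permutation p of 0.00216, the smallest that 6 against 6 allows, and an adjusted p of 0.0130 over the 12 comparisons. In NAc it averaged -2.16 ± 0.55 in SNI and -2.41 ± 0.37 in sham libraries, and in PFC -2.38 ± 0.51 and -2.29 ± 0.57 (exact permutation p = 0.374 and 0.732, adjusted p = 0.571 and 0.798). The summed glutamate transporters over Slc32a1 in PAG averaged 1.92 ± 0.35 in SNI and 2.59 ± 0.17 in sham libraries on the log2 scale (difference -0.67, exact permutation p = 0.00216, adjusted p = 0.0130). Compared as differences of medians, the 2 PAG balances gave 0.62 and -0.62 and missed the threshold, both with an adjusted exact permutation p of 0.0779. Both PAG balances hold Slc32a1, whose difference with the GC slope as a covariate is given above.

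Gad1 over Gad2 did not differ beyond the spread of the libraries. On the log2 scale it averaged -0.79 ± 0.18 in SNI PAG and -0.90 ± 0.07 in sham PAG, -0.79 ± 0.08 in SNI NAc and -0.73 ± 0.08 in sham NAc, and 0.31 ± 0.06 in SNI PFC and 0.35 ± 0.05 in sham PFC libraries (SD, n = 6 each; adjusted exact permutation p = 0.537 in every region). The ratio was above 0 in all PFC libraries and below 0 in all libraries of the other 2 regions, so that Gad1 had the higher level per length of the pair in PFC alone. The share of Slc17a7 in the summed level of the 3 glutamate transporters was 2.42% ± 0.70 in SNI PAG and 1.78% ± 0.30 in sham PAG, 74.9% ± 24.7 in SNI NAc and 75.0% ± 32.2 in sham NAc, and 99.1% ± 0.15 in SNI PFC and 99.0% ± 0.23 in sham PFC libraries (adjusted exact permutation p = 0.312, 0.998 and 0.571).

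**Figure D5:**
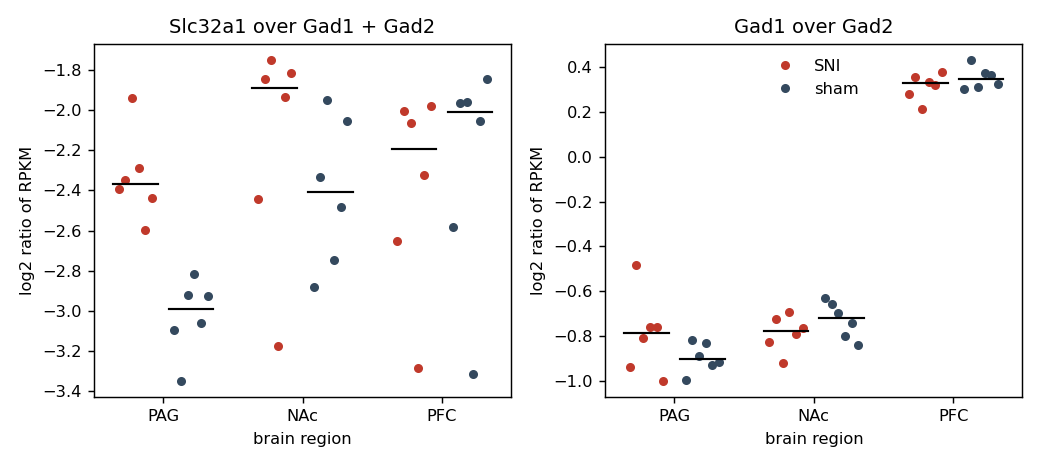
Log2 ratio of RPKM of Slc32a1 to Gad1 + Gad2 (left) and of Gad1 to Gad2 (right) in each library, by region, with SNI left of sham and a bar at each group's median. On the left, the SNI and sham libraries of PAG do not overlap; on the right, PFC lies above 0 and both other regions below it.

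Whether the SNI differences themselves differed between regions was tested with interaction contrasts, and none of the 18 for these genes passed (limma called 0% of 15639 genes in each of the 3 contrasts; 1405, 2779 and 178 had an unadjusted p under 0.05 for PAG minus NAc, PAG minus PFC and NAc minus PFC). The PAG minus PFC contrast of Slc32a1 was 0.67 (SE 0.30, adjusted p = 0.249), of Slc17a8 -0.70 (SE 0.29, adjusted p = 0.234) and of Gad2 -0.17 (SE 0.08, adjusted p = 0.258). The PAG minus NAc contrast was 0.31 for Slc32a1 (SE 0.30, adjusted p = 0.751), -0.74 for Slc17a8 (SE 0.29, adjusted p = 0.525) and -0.19 for Gad2 (SE 0.08, adjusted p = 0.525). The calls in PAG were therefore not shown to be particular to that region. These contrasts share the PAG libraries.

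Other genes of the 2 transmitter pathways were followed in PAG, where 35.2% of all genes were called. GC content stands beside each, since the calls of that region went with it. Of 6 genes for GABA breakdown and uptake, 5 passed the filter, of which 1 rose and 2 fell in SNI (median -0.07). Abat, which breaks down GABA (50.2% GC), fell by 0.14 (adjusted p = 0.00501), and Aldh5a1, which acts after it (48.3% GC), fell by 0.12 (adjusted p = 0.00215). Of 10 listed transcription factors of GABA neurons, 4 passed the filter in PAG, and all 4 are also among the 9 midbrain markers above. The median of the 4 was 0.36, and 3 rose, which are among the 4 midbrain markers already given as called higher. They were Sox14 (0.38, adjusted p = 0.00103, 55.8% GC), Gata3 (0.35, adjusted p = 0.00136, 49.7% GC) and Gata2 (0.37, adjusted p = 0.00619, 58.2% GC), factors that specify GABA neurons of the midbrain. Sox14 averaged 1.12 ± 0.13 RPKM in SNI and 0.74 ± 0.09 RPKM in sham libraries (SD, n = 6 each), and Tal1, the fourth, had a difference of -0.07 (adjusted p = 0.244).

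On the glutamate side, 1 of 11 genes of synthesis and recycling rose and 2 fell (median 0.05). Slc25a22, a mitochondrial glutamate carrier (57.6% GC), averaged 23.9 ± 2.06 RPKM in SNI and 16.2 ± 1.63 RPKM in sham PAG libraries (SD, n = 6 each; 0.55, adjusted p = 9.03e-05). Slc38a1, a glutamine transporter (48.5% GC), fell by 0.08 (adjusted p = 0.0166). Among the 4 uptake transporters, Slc1a2, the main astrocyte glutamate transporter GLT-1 (45.3% GC), fell by 0.17 (adjusted p = 0.0243) and none rose. Slc6a9, the glycine transporter GlyT1 (57.0% GC), rose by 0.28 (adjusted p = 0.00238), and Gphn, which encodes gephyrin, the scaffold of GABA and glycine receptors (48.1% GC), fell by 0.12 (adjusted p = 0.00651). Slc6a5, the neuronal glycine transporter, had -0.18 (adjusted p = 0.0932). Of 6 other vesicular transporters in the data, 4 passed the filter. Among these, Slc30a3, the zinc loader of glutamate vesicles (60.3% GC), rose by 0.34 (adjusted p = 0.0052).

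The list for the proton pump that powers all 4 vesicular transporters also holds Clcn3, which is an exchanger and not a pump subunit. Of the 14 genes on that list, 2 were called higher and 5 lower (median -0.06). Atp6v0c, the ring subunit of the pump (52.0% GC), averaged 26.7 ± 5.98 RPKM in SNI and 14.6 ± 1.67 RPKM in sham PAG libraries (0.84, adjusted p = 0.000142), the largest difference in any of these lists, and Atp6v1f (53.3% GC) rose by 0.22 (adjusted p = 0.00767). Clcn3, a chloride and proton exchanger (41.4% GC), fell by 0.15 (adjusted p = 0.00447) and the catalytic subunit Atp6v1a (44.6% GC) fell by 0.13 (adjusted p = 0.00749). The other 3 called lower had 37.6 to 44.4% GC. In these lists the genes called higher had 49.7 to 60.3% GC and those called lower 37.6 to 50.2%. In NAc and PFC 0 genes of these lists were called. The gene of smallest p in each list had, in NAc, a difference of -0.69 (Slc6a13, a GABA transporter), 0.29 (Dlx2, a transcription factor of forebrain GABA neurons), -0.17 (Slc38a2, a glutamine transporter), -0.09 (Slc1a6, a glutamate transporter), -0.06 (Gphn), -0.10 (Slc18a2, the vesicular monoamine transporter) and -0.09 (Atp6v1d), at adjusted p-values of 0.780 to 0.783. In PFC these were 0.19 (Slc6a13), 0.06 (Dlx1, a relative of Dlx2), 0.14 (Slc38a5, a glutamine transporter), -0.03 (Slc1a2), -0.06 (Gphn), -0.07 (Slc17a5, a lysosomal sialic acid transporter) and -0.07 (Atp6v1e1), all at an adjusted p of 0.99997.

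Across all 36 libraries, the genes whose log2 levels followed each gene most closely were listed by Pearson's r among 11845 genes, as a description in which region differences dominate. Nearest to Slc17a6 were Nxpe3 (0.995), Smad9 (0.994) and Tuft1 (0.993). For Slc17a7 they were Tbr1, a transcription factor of deep-layer cortical neurons (0.990), Nov (0.984) and Dtl (0.980). Slc17a8 ran closest to Slc10a4, a vesicular protein of cholinergic and monoamine neurons (0.966), Slc22a3 (0.964) and Scg2 (0.942). Gad1 was nearest to Six3 (0.978), Clip4 (0.978) and Rgs8 (0.977), and Gad2 to P2ry1 (0.993), Spock3 (0.993) and Nts, the neuropeptide neurotensin (0.992). Slc32a1 was nearest to Grm4, a metabotropic glutamate receptor (0.989, 61.7% GC), Asic4 (0.981, 61.4% GC) and Zfp516 (0.975, 53.8% GC).

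Within a region the genes most like Slc32a1 had 55.8% GC or more. In PAG they were Fgfr3 (r = 0.963, 56.4% GC), Btbd17 (0.959, 57.7% GC) and Arhgap44 (0.957, 55.8% GC). In NAc they were Bcl9l (0.980, 60.1% GC), Wwc1 (0.978, 57.1% GC) and Zswim4 (0.976, 58.4% GC), and in PFC Ccdc124 (0.997, 59.96% GC), Dlgap3 (0.996, 63.9% GC) and Dtx1 (0.995, 62.5% GC). Those most like Gad2 had 41.6 to 45.9% GC in PAG (Chrm2, Ermp1 and Rapgef4; r of 0.870 to 0.923) and 44.0 to 45.7% GC in PFC (Smim8, Slc35e2 and Mtpap; 0.942 to 0.965). In NAc the nearest to Gad2 were Tcf20 (0.955, 49.2% GC), Runx1t1 (0.944, 44.4% GC) and Tceanc2 (0.941, 49.3% GC). For Gad1 they were Plekhb1, Ano4 and Megf11 in PAG (0.942 to 0.945), Stox2, Xpr1 and Msh6 in NAc (0.928 to 0.941), and Abcd2, Gcnt4 and Ccni in PFC (0.957 to 0.981).

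Among the glutamate transporters, Slc17a6 was closest to Klhl13, Zfp938 and Cd83 in PAG (0.968 to 0.992), to Bcat1, Esrrg and Smad9 in NAc (0.966 to 0.988), and to Ankib1, Cpox and Plcxd3 in PFC (0.944 to 0.983). Smad9 was thus among its nearest genes both over all libraries and within NAc. Slc17a7 was closest to Slc13a3, Rgs8 and Tango6 in PAG (0.808 to 0.864), and to Adrb1, a beta adrenergic receptor, Dkkl1 and Sult4a1 in PFC (0.960 to 0.964). Slc17a8 in NAc was closest to Pde8b, Htr4, a serotonin receptor, and Tacr1, the receptor of substance P (0.961 to 0.986).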

How the data were processed

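The authors deposited RPKM for every gene and library, scaled to gene length and assigned reads, with the lengths beside them. The submitters' processing notes name TopHat2, HTSeq and mm10 without roles, versions or a strand setting, so Slc32a1 and Gad1, which antisense genes (Gm14205, Gad1os) overlap, are uncertain. RPKM times length and depth gave whole reads for 100% of values within 0.001.

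SNI was compared with sham within a region (12 libraries) by limma 3.58.1 (R 4.3.3) with a mean-variance trend, on log2(RPKM + 0.5), which understates the fold of low genes; genes averaging under 0.5 RPKM were left out. Regions and interactions came from 1 model of 36 libraries. Adjustment was by Benjamini-Hochberg over all genes, two-sided, at 0.05. Balances and library measures used two-sided exact permutation over 924 assignments, correlations 100000 permutations within groups. GC content was that of the longest GENCODE M21 transcript (97.9% of identifiers). Fits were tested on simulated data. These held no differences in GC slope or tissue make-up between libraries of a region, so they could not test the fits against either. The planned quasi-likelihood test on reads was not run, since the deposited unit is RPKM; voom on recovered reads was chosen after seeing the data. Alternatives were pseudocounts, filters, scalings, array weights, covariates and leaving out each library.

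The 6 genes and all lists were chosen with earlier results of these data known. In each region the score of 1 marker list was set against the genes: serotonin in PAG, cortical excitatory in NAc and oligodendrocyte in PFC. The adjustment over 36 relations does not cover the choice of that list. Per list and region, up to 4 called genes of smallest p are named, otherwise 1; for likeness, the 3 of highest r. Some genes of the lists are counted but not reported here by name. Slc18a3 was not analysed here.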

Additional observations from a re-analysis of the deposited data

Results flagged for a closer look

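Gad2 in SNI PFC replicate 19 had 34.1 RPKM, apart from the other 5 libraries of its group, of which the nearest had 31.2 RPKM. The gap was 0.680 of the group's whole range, above the critical value of 0.625 for 6 samples. Of 60 sets of 6 values examined, 36 of single genes and 24 of balances, 1 stood out in this way, and chance gives about 1 in 20. None of the 18 interaction contrasts of these genes passed the threshold (lowest adjusted p = 0.234).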

How the results depend on the processing

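Libraries are numbered consecutively across the groups, and the sample names do not say whether regions came from the same mice. No paired analysis was made, and the model of all 36 libraries treated them as independent. In PAG, Slc32a1 kept its direction and its call under other pseudocounts, filters, scalings, array weights, the serotonin score, voom on recovered reads and without each library (0.49 to 0.62); its call was lost in 1 model of all libraries (adjusted p = 0.0535). With the GC slope as covariate, PAG values were -0.071 for Slc32a1, 0.22 for Slc17a6 and 0.039 for Gad1, with 0 genes and 0 of the 6 genes called. PAG genes called were 3337 in 1 model, 5657 with voom (0 in NAc and PFC) and 4234 to 6529 without 1 library. Array weights called 4 of the 6 genes in PAG. With these weights, 7804 of all 15592 PAG genes had an unadjusted limma p under 0.05, against 7170 without them. In NAc, array weights called 2 genes, and leaving out 1 library gave 0 to 3, with 3 without SNI replicate 7. NAc signs turned with the GC slope (Slc17a8 -0.016, Slc32a1 -0.037, Gad1 0.011), with the cortical score (Slc17a7 0.20, Slc17a8 -0.044) and for Gad1 with median-of-ratios scaling (0.0036). PFC signs turned for Slc17a7 with quantile scaling (-0.00070) and the GC slope (-0.0014), and for Slc17a8 with array weights (0.016). As a difference of medians, the PAG balances were 0.62 for Slc32a1 over both decarboxylases and -0.62 for the glutamate transporters over Slc32a1, both with adjusted exact permutation p = 0.0779. The cause was not tested in these cases.

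Without 1 library, the log2 difference ranged from -1.19 (without sham replicate 5) to 0.30 (without SNI replicate 12) for Slc17a7 in NAc, with -0.049 to 0.077 for Slc17a8 and -0.0071 to 0.074 for Gad2 there. In PFC it was -0.033 to 0.045 for Slc17a7, -0.27 to 0.039 for Slc32a1, -0.059 to 0.011 for Gad1 and -0.017 to 0.044 for Gad2. In PAG it was -0.12 to 0.00054 for Gad1 and -0.90 to -0.52 for Slc17a8. The NAc share of Slc17a7 differed by -11.9 to 8.91 percentage points, and the PFC balance of Slc32a1 over both decarboxylases by -0.30 to 0.083. The sham PAG minus PFC difference of Slc32a1 missed the test without sham replicate 13 (0.38, adjusted p = 0.0921) or 14 (0.48, adjusted p = 0.0506) and with median-of-ratios scaling (0.41, adjusted p = 0.0862), and the PAG minus NAc difference of Slc17a8 without sham replicate 29 (0.46, adjusted p = 0.0553).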
